A study of Mus musculus with 3 samples.

Results

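The VEGF and EGF family genes of implantation were examined as 10 genes of mouse blastocysts, measured by 17 probes of an Agilent expression array that held 56591 probes with a value on all arrays and 23458 named genes. The ligands were Vegfa, Vegfb, Vegfc, Pgf and Hbegf, and the receptors were Flt1, Kdr, Egfr, Erbb2 and Erbb3. The genes were listed by family, but the set was in part selected on measured values of these same arrays, since Vegfa drew attention to it when 2 of its probes were lower in suppressed aging than in young blastocysts. The values of that contrast are therefore a description, and no support is taken from them. The other contrasts each share an array with it, so their values of Vegfa are not free of that choice.

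The study asked how maternal age and CXCL5-CXCR2 signaling, a chemokine and its receptor, affect the embryo. Young blastocysts came from ICR female mice of 3 to 6 weeks and aging blastocysts from ICR females of 43 to 53 weeks. In both cases the females were super-ovulated, and zygotes, described as flushed from the oviducts after mating, grew for 96 hours in KSOM, an embryo culture medium. Captions of the paper name in vitro fertilization for its treated cultures, and this difference was not resolved here. CXCL5-CXCR2 signaling-suppressed aging blastocysts, here called suppressed aging, came from aging females and grew with 10 μg/ml of an anti-CXCL5 neutralizing antibody and 10 nM of a CXCR2 selective antagonist. The antibody and the antagonist were given together, and no suppressed young embryos were measured. Each condition was 1 pool of 30 expanded blastocysts on 1 array, with the RNA of the embryo only and none of the uterus, and the number of females behind a pool is not given in the sources used here. With 1 array per condition the spread between pools is unknown, so no difference below has a test.

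Vascular endothelial growth factors are secreted ligands that bind the tyrosine kinase receptors FLT1 and KDR, and they are best known for the growth and permeability of blood vessels, including those of the implantation site. Vegfa is switched on by hypoxia-inducible factors, and splicing of its RNA gives several forms. HB-EGF, the product of Hbegf, is an EGF family ligand that is made as a membrane-bound precursor and shed by metalloproteinases. It binds EGFR and ERBB4, and in mice it is among the first molecules exchanged between the attaching blastocyst and the uterine epithelium. ERBB2 has no known ligand of its own and pairs with the other receptors, while ERBB3 binds neuregulins and has little kinase activity.

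Levels are log2 intensities minus the 75th percentile of the same array, and a difference of 1 is 2-fold. They compare conditions within a probe and do not rank probes or genes. In a pool of whole embryos, fewer cells of a type and less RNA per cell cannot be told apart. Of the 17 probes, 15 were well above background on at least 1 array, and 8 of the 10 genes had such a probe. Flt1 and Kdr, the main VEGF receptors, were not well above background on any array, with levels from -6.39 to -6.18 for Flt1 and from -6.54 to -6.23 for Kdr. The lowest level that counted as well above background was -4.20 in young, -4.32 in aging and -3.93 in suppressed aging blastocysts.

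**Figure D1:**
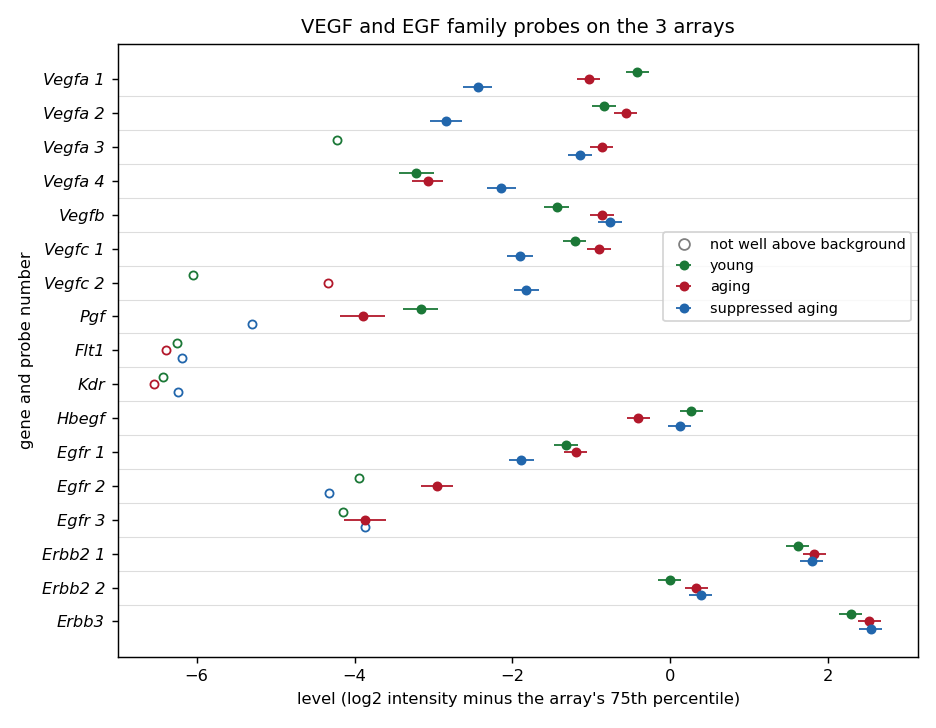
Level of each of the 17 probes (log2 intensity minus the 75th percentile of the array, x axis) on the young, aging and suppressed aging array, with the scanner software's error of the spot as bars. Open circles were not well above background. The 3 points of Erbb2 and Erbb3 lie close together, and those of Vegfa and of Vegfc probe 2 lie far apart.

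Vegfa was read by 4 probes, and they did not move together. Probe 1 (A_52_P638895) had a level of -0.42 in young, -1.04 in aging and -2.44 in suppressed aging blastocysts, or intensities of 108, 75.4 and 22.5. Probe 2 (A_51_P482552) had a level of -0.84 in young, -0.57 in aging and -2.84 in suppressed aging blastocysts. In both, the suppressed aging array was the lowest of the 3. Probe 3 (A_52_P249424) was not well above background in young blastocysts (level -4.22, intensity 7.79), and had a level of -0.87 in aging and -1.14 in suppressed aging blastocysts. Probe 4 (A_55_P2741794), the dimmest of the gene where all arrays were well above background, had a level of -3.22 in young, -3.07 in aging and -2.14 in suppressed aging blastocysts, so that its highest value was in the condition where probes 1 and 2 had their lowest.

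The array design assigns probes 1, 2 and 4 to 1 RefSeq transcript of Vegfa (NM_001025250) and probe 3 to another (NM_001025257), of 10 RefSeq transcripts of the gene in the table used for names. Probe sequences and positions were not used here, so it is not known which exons or which end of the RNA each probe reads. Probes 1, 2 and 4 were split among themselves although they share 1 transcript.

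Suppressed aging blastocysts were lower than young by 4.07-fold at probe 1 (log2 difference -2.02, scanner error 0.23) and by 4.01-fold at probe 2 (scanner error 0.26). These 2 values are the ones that drew attention to the gene. Of all probes compared, 4.03% and 4.14% were at least as far apart. In the same contrast probe 3 was at least 8.31-fold higher and probe 4 was 2.11-fold higher (1.07, scanner error 0.29). The gene as a whole has no single direction in these data. The sizes depended on the background correction, and with the normexp method, which draws dim values together, probes 1 and 2 were at -0.84 and -0.57 on the log2 scale and no member probe was over 2-fold apart in this contrast.

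Against untreated aging blastocysts, suppressed aging blastocysts were 2.65-fold lower at probe 1 (log2 difference -1.41) and 4.85-fold lower at probe 2 (-2.28). Probe 3 differed by -0.27 and probe 4 by 0.93. The suppressed aging array is also the one on which probes 1 and 2 were noted as low, so this contrast is a description too. Between aging and young blastocysts, probe 3 was at least 10.0-fold higher in aging, a size that 0.587% of all compared probes reached. The other 3 probes were less than 2-fold apart, at -0.62, 0.27 and 0.14. The scanner error of these measured differences was between 0.21 and 0.30. It covers the spot and the scan and leaves out the amplification, the pool and the animals.

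**Figure D2:**
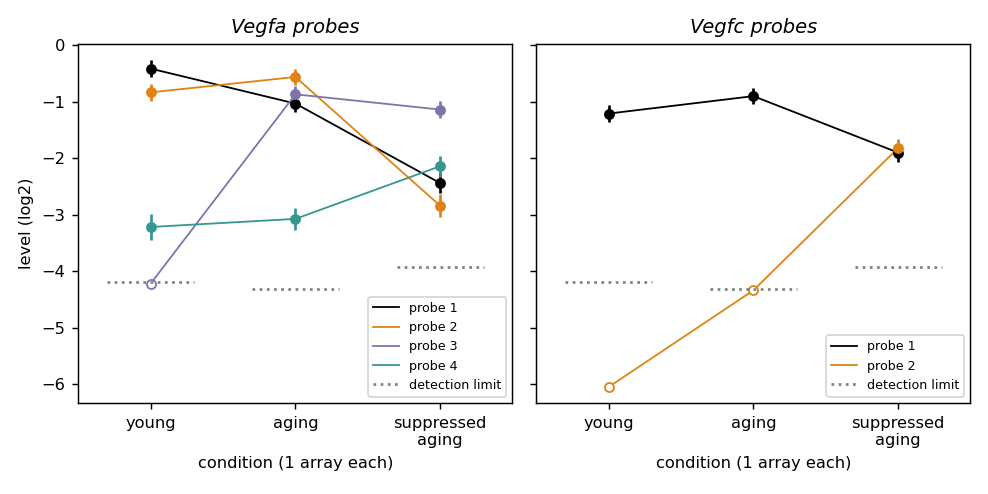
Levels (y axis, log2 intensity minus the 75th percentile of the array) of the 4 Vegfa and the 2 Vegfc probes in young, aging and suppressed aging blastocysts (x axis), with 1 line per probe, scanner error bars, dotted detection limits and open symbols where the probe was not well above background. Vegfa probes 1 and 2 are lowest in suppressed aging, at -2.44 and -2.84, where Vegfa probe 4 is highest, at -2.14.

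Splits of this kind were seen in other genes. Of 207 genes with at least 4 comparable probes between suppressed aging and young blastocysts, 14 (6.76%), Vegfa among them, had probes over 2-fold higher and probes over 2-fold lower. The number was 21 of 212 genes (9.91%) when aging was set against young blastocysts and 17 of 206 (8.25%) when suppressed aging was set against aging, and Vegfa was in neither group.

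Vegfc, a ligand best known for the growth of lymphatic vessels, also had discordant probes, both assigned to the same transcript. Probe 1 had a level of -1.21 in young, -0.90 in aging and -1.90 in suppressed aging blastocysts, and was 1.997-fold lower in suppressed aging than in aging (scanner error 0.22 on the log2 scale), just inside the 2-fold limit. Probe 2 was not well above background in young (-6.05) or in aging (-4.34) and had a level of -1.82 in suppressed aging blastocysts. It was at least 5.65-fold higher in suppressed aging than in aging and at least 5.19-fold higher than in young. The 2 probes thus ordered the suppressed aging array in opposite ways, lowest at probe 1 and highest at probe 2.

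Vegfb, a ligand of FLT1, had a level of -1.44 in young, -0.86 in aging and -0.76 in suppressed aging blastocysts. Both aging arrays were higher than the young one, by 0.58 and 0.68 on the log2 scale with a scanner error of 0.21, and they differed from each other by 0.10. Of all probes compared, 41.2% and 30.9% were at least as far from the young array. Pgf, the placental ligand of FLT1, read -3.16 in young and -3.90 in aging blastocysts and was not well above background after suppression (-5.30). Aging was 1.66-fold lower than young, and suppressed aging was at least 1.70-fold lower than young. All 3 Pgf values were dim, with 16.2 as the highest intensity.

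Hbegf had a level of 0.27 in young, -0.41 in aging and 0.12 in suppressed aging blastocysts. Of the 8 member genes above background, it was the only one whose single or brightest probe was lowest in untreated aging blastocysts. Aging was 1.59-fold lower than young (log2 difference -0.67), suppressed aging was 1.44-fold higher than aging (0.52), and suppressed aging and young differed by -0.15, with a scanner error of 0.21 for each. Neither of the first 2 differences stood out among all probes, of which 35.3% and 42.1% were at least as far apart.

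Erbb2 and Erbb3 were close to level across the conditions. Erbb3 had levels of 2.28, 2.52 and 2.54 in young, aging and suppressed aging blastocysts. Erbb2 probe 1 had levels of 1.61, 1.82 and 1.79, and its probe 2 had -0.01, 0.33 and 0.38. The 3 probes were higher in both aging conditions than in young, by 0.18 to 0.39 on the log2 scale, and between the aging conditions they differed by -0.03, 0.06 and 0.02. The scanner error of these differences was 0.20 to 0.21, and all 9 lay within 2 such errors.

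Egfr, the receptor of HB-EGF and of EGF, was read by 3 probes. Probe 1 had a level of -1.32 in young, -1.20 in aging and -1.89 in suppressed aging blastocysts, and was 1.61-fold lower in suppressed aging than in aging. Probe 2 was well above background in aging blastocysts only (-2.96), at least 1.98-fold higher than in young and at least 1.96-fold higher than in suppressed aging. Probe 3 was also well above background in aging only (-3.86), so close to the limit that it was at least 1.22-fold above young and at least 1.004-fold above suppressed aging. Probe 1 stayed within 2-fold in all 3 comparisons. Probe 2 has bounds only, which do not show whether it lay within 2-fold, and some alternative settings put it beyond (up to 1.07 on the log2 scale above young, and -1.37 after suppression).

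**Figure D3:**
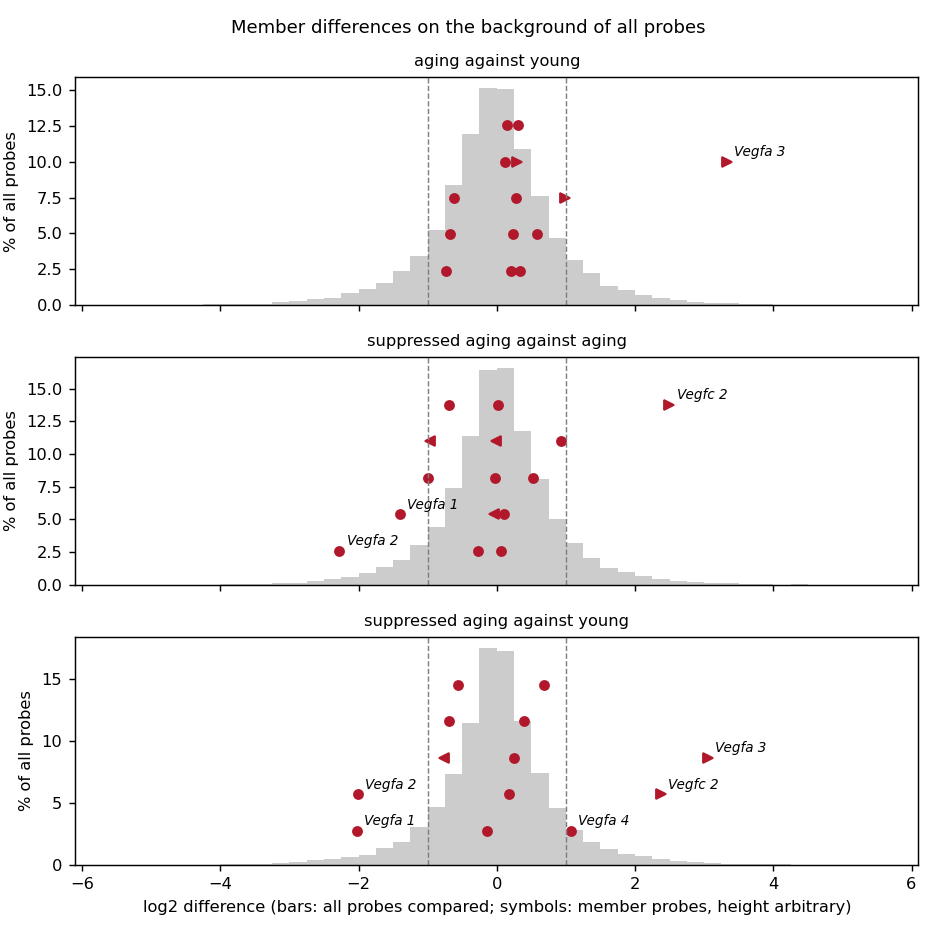
Log2 differences (x axis) of the member probes in the 3 comparisons, over grey bars with the percentage of all compared probes in each range (y axis). Circles are measured differences, triangles are bounds that point the way the difference can grow, their height has no meaning, and dashed lines mark 2-fold. Probes of Vegfa and Vegfc lie beyond 2-fold on both sides, and the measured differences and bounds of the other member probes lie inside.

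Counted over the probes, 1 of 14 comparable member probes was over 2-fold apart between aging and young blastocysts, beside 21.1% of all probes, and the same probe was over 5-fold apart, beside 3.00% of all. Suppression set against no treatment in aging blastocysts put 3 of 15 2-fold apart (1 higher, 2 lower), beside 19.0% of all, and 1 over 5-fold, beside 2.55%. Suppressed aging set against young gave 5 of 13 over 2-fold apart (3 higher, 2 lower), beside 18.1% of all, and 2 over 5-fold, beside 2.51%. A bound is counted by its own size, so a probe counted inside 2-fold by a bound may lie beyond it. All of the probes counted belonged to Vegfa and Vegfc. The last contrast is the one by which Vegfa was noted, and the other contrasts share an array with it. The counts are therefore given as a description. With the brightest probe of each gene, 8 genes could be compared, and the median log2 difference was 0.16 for aging against young, -0.03 for suppressed aging against aging and -0.36 for suppressed aging against young. Over all genes it was 0.03, -0.00 and 0.03.

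Dim probes differed more between arrays than bright ones across the whole array, and most member probes were dim. At levels from -3.04 to -1.05, which held 6 of the comparable member probes, 26.5% to 29.2% of all probes were over 2-fold apart. At levels above 1.27, which held Erbb3 and Erbb2 probe 1, the share was 4.77% to 6.11%.

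Markers of the cell types that a blastocyst pool could hold were read in the same way. All 9 trophectoderm, 6 inner cell mass and 5 primitive endoderm markers were well above background on every array. The summed level (log2 of the sum of the linear levels) of the trophectoderm list, the outer layer that attaches to the uterus, was 9.11 in young, 8.75 in aging and 8.94 in suppressed aging blastocysts, and that of the inner cell mass list was 10.03, 10.29 and 10.19. The latter rested mostly on Nanog, at 9.88, 10.14 and 10.03. Another Nanog probe was 1.02 higher in aging than in young, against 0.26 at this one. The primitive endoderm sum was 4.02, 4.29 and 4.02, while 2 of its markers went opposite ways between aging and young, Sox17 at -1.53 and Pdgfra at 1.28, with other probes at 0.33 and 0.24. Of 9 trophectoderm markers, 2 were lower in aging than in young by more than 2-fold, Krt7 and Tfap2c (-1.17 and -1.16, with another Tfap2c probe at 0.08). The other 7 stayed within 2-fold, and the list median was -0.19. Of 6 inner cell mass markers, 2 were over 2-fold higher, Sox2 and Esrrb (1.37 and 1.11), with a list median of 0.35. Sox2 was also over 2-fold higher in suppressed aging than in young (1.10). Over all genes, 19.0% were over 2-fold apart between aging and young. The share was 17.3% for suppressed aging against aging and 16.3% for suppressed aging against young. For possible other cells, 3 of 7 cumulus and granulosa markers were detected on each array, with sums of 8.66, 8.55 and 8.78 that rested on Foxl2, while Fshr, Has2, Ptx3 and Inha were not well above background on any array. The other markers detected, Cyp19a1 (-1.18, -1.31 and -1.01) and Amh (-3.33, -3.79 and -3.68), were dim. Whether the Foxl2 probe reads Foxl2 alone was not tested, so the sum is not taken as a measure of granulosa RNA. Of 6 endothelial markers 3 were detected in young and 2 in each aging condition (sums -0.50, -0.74 and -0.05), and Tek, Tie1 and Emcn were never above background. Of 5 blood markers 3, 3 and 2 were detected (sums 2.56, 2.06 and 1.17, mostly from Cd68 at 2.30, 1.37 and 0.80), and Ptprc and Lyz2 never were. Cd68 and Alas2 were lower in suppressed aging than in young by more than 2-fold (-1.49 and a bound of -1.17), and Hba-a1 was lower in suppressed aging than in aging (-1.69, with another probe at -0.82). The part of these lists in the values of the VEGF and EGF genes was not tested.

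The other genes of both pathways were taken from lists of ligands, receptors, regulators and partners, each read by its brightest probe. Of 5 other VEGF genes, the ligand Vegfd and the lymphatic receptor Flt4 were never well above background. The co-receptors Nrp1 and Nrp2 and the semaphorin receptor Plxnd1 were measured in all conditions. None was over 2-fold apart in any comparison (0 of 3, beside 16.3% to 19.0% of all genes), with medians of -0.01, 0.12 and 0.11. A second probe of Nrp2 went against this, at -2.19 between aging and young and -2.22 between suppressed aging and young.

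The oxygen-sensing genes that act on Vegfa were compared as a list of 9. Between aging and young blastocysts 3 were over 2-fold higher and 1 lower, with a median of 0.51 beside 0.03 over all genes, of which 19.0% were over 2-fold apart. Arnt2, a partner of the hypoxia-inducible factors, was not well above background in young (-6.33), had a level of -1.49 in aging and -3.57 in suppressed aging blastocysts, and was higher in aging than in young by at least 2.71 on the log2 scale. Hif1an, the asparagine hydroxylase that holds these factors inactive when oxygen is present, had levels of -1.48, 0.24 and -0.27, and Egln2, a prolyl hydroxylase of the same system, had 2.99, 4.07 and 4.38. Another probe of Hif1an differed by 0.61 between aging and young, and another of Egln2 by -0.01. Egln3, also a prolyl hydroxylase, was not well above background in aging blastocysts (-4.46), and was measured in young (-3.27) and suppressed aging (-3.24). The factors themselves were less than 2-fold apart, Hif1a at 0.16 and Epas1 at 0.33.

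After suppression, Arnt2 was lower than in untreated aging blastocysts (-2.07) and Egln3 higher by at least 1.08, and the list's median was -0.25. Another probe of Arnt, also of this list, was higher by 1.16, against 0.08 at its brightest probe. Egln2 and Hif1an were over 2-fold higher in suppressed aging than in young blastocysts (1.39 and 1.22, with their other probes at 0.19 and 0.40), with a list median of 0.08. With normexp, the list had 1 gene over 2-fold higher and 0 lower between aging and young, 0 after suppression against aging, and 1 higher against young. Under that method, in the same order, 4.52%, 3.83% and 3.85% of all probes were over 2-fold apart. Without normexp, the share of all genes over 2-fold apart was 17.3% for suppressed aging against aging and 16.3% for suppressed aging against young.

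Genes other than Vegfa that respond to low oxygen moved both ways. Between aging and young, 2 of 10 were over 2-fold higher and 1 lower, beside 19.0% of all genes over 2-fold apart, with a median of 0.15. Ldha, a lactate dehydrogenase subunit, had levels of 2.55, 3.81 and 3.51 in young, aging and suppressed aging blastocysts, and its other probe differed by -0.41 between aging and young against 1.26 at this one. Adm, the vasodilator adrenomedullin, was well above background in aging blastocysts only (-2.72), at least 1.48 above young on the log2 scale and over 2-fold above suppressed aging. P4ha1, a collagen prolyl hydroxylase, was lower in aging than in young by -1.01 at this probe and by -0.17 at another. Suppressed aging against young is the contrast in which Vegfa probes 1 and 2 were lower and its probes 3 and 4 higher. There 0 of 9 comparable genes were over 2-fold apart at the brightest probe, beside 16.3% of all genes, with a median of -0.23. Adm was dim on both of these arrays and could not be compared. Any link between this list and the values of Vegfa was not tested. Other probes of Pdk1, a pyruvate dehydrogenase kinase, differed in that contrast by -2.40 and -0.62, against -0.29 at the brightest one, and between suppressed aging and aging 1 of them was at -2.26 against 0.51.

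Among 11 other EGF family genes, the 6 ligands or receptors Tgfa, Areg, Ereg, Epgn, Nrg3 and Erbb4 were never well above background. Erbb4 is the other receptor of HB-EGF. Egf was well above background in young blastocysts only (-2.84), so that aging and suppressed aging gave bounds of -1.48 and -1.09 on the log2 scale and lay over 2-fold lower. Betacellulin, Btc, was also above background in young only (-3.36), with bounds of -0.96 and -0.57, which do not show whether it lay within 2-fold. A gene detected in young alone could only come out lower in the other conditions. The neuregulins Nrg1, Nrg2 and Nrg4, ligands of ERBB receptors, differed between aging and young by -0.25, -0.23 and -0.44. These 3 genes, measured on all arrays, had a median of -0.25, but other probes of Nrg1 ran from -3.22 to 0.53 and another of Nrg4 was at 2.65.

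Of 8 genes that shed HB-EGF or hold it at the cell surface, 1 was over 2-fold apart when aging was set against young, 0 when suppressed aging was set against aging, and 2 of 7 when suppressed aging was set against young. The shares over all genes in the same order were 19.0%, 17.3% and 16.3%. Sdc1, a heparan sulfate proteoglycan, had levels of -1.98, -0.27 and -0.36 in young, aging and suppressed aging blastocysts. Its other 2 probes were at -0.57 and 2.46 between aging and young, so they did not share 1 direction. With normexp the counts of this list were 0 in all 3 comparisons, beside 4.52%, 3.83% and 3.85% of all probes over 2-fold apart. Adam9, a metalloproteinase, had levels of 0.24, 1.22 and 1.42, higher than young by 0.98 in aging and 1.19 in suppressed aging. The sheddase Adam17 stayed between -0.41 and -0.23, and Cd9, a partner of the HB-EGF precursor, was at 6.06, 6.22 and 6.14.

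Of 12 adaptors and negative regulators of the ERBB receptors, 2 were over 2-fold higher in aging than in young, and 0 were over 2-fold apart in the other 2 comparisons. Over all genes, 19.0% were over 2-fold apart between aging and young. The share was 17.3% for suppressed aging against aging and 16.3% for suppressed aging against young. Sos2, an exchange factor for RAS, had levels of -2.91, -1.83 and -2.30, and Cblb, a ubiquitin ligase, had 0.76, 1.88 and 1.63, with its other probe at 0.33 between aging and young. The medians of the list were 0.02, -0.14 and 0.17. Other probes went beyond 2-fold for 1 gene between aging and young (Shc1, 1.11) and for Lrig1 and Rnf41 in the other comparisons, where that of Lrig1 was at 1.57 and 1.78 and those of Rnf41 ran from -1.40 to 1.70 and from -0.75 to 2.13. Errfi1, an inhibitor of EGFR and ERBB2, had levels of 2.53, 1.66 and 2.35 and was lowest in untreated aging blastocysts, without reaching 2-fold.

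**Figure D4:**
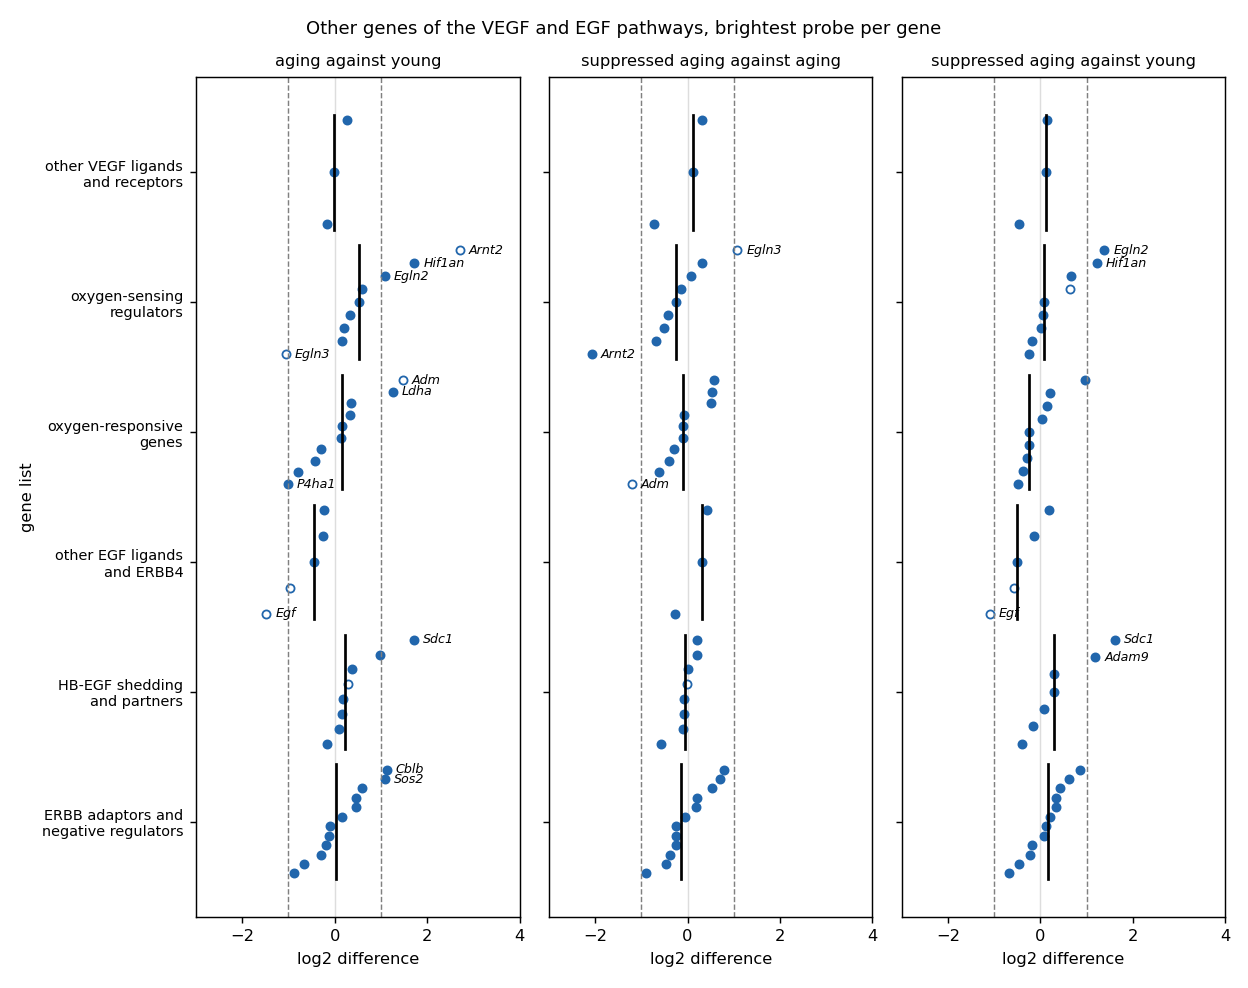
Log2 difference (x axis) of each gene of the 6 other lists of the VEGF and EGF pathways, by its brightest probe, in the 3 comparisons. Filled circles are measured differences, open circles are bounds, black lines are list medians, dashed lines mark 2-fold, and only genes beyond 2-fold are named. Most genes lie within 2-fold, and the oxygen-sensing list has 4 genes beyond it between aging and young.

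The genes most like Vegfa were sought with its brightest probe, by the distance between the pair of log2 differences aging minus young and suppressed aging minus aging. Of 13810 genes compared, 69 lay within 0.5 of Vegfa. The nearest 5 were Mypn (distance 0.08), Adck1 (0.12), Pkp3 (0.19), Fitm2 (0.20) and Zfp429 (0.21). Fitm2 had another comparable probe, which was 4.65 higher in suppressed aging than in young on the log2 scale. The measure uses 3 arrays and 1 of the 4 Vegfa probes, and says nothing about the other 3.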

How the data were processed

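The authors hybridised Cy3-labelled RNA of 3 pools to 1-color Agilent mouse arrays and deposited the scanner intensity of each spot, background-subtracted and detrended within the array by Agilent Feature Extraction 12.0.3.1, without normalization between arrays. The labels name the Low Input Quick Amp kit, whereas the study's methods describe global PCR amplification, and the files do not settle it. Amplification from little RNA can add spread at dim probes, which was not measured here. The authors' processed values equal the deposited intensity times 1 factor per array (3.46, 3.34 and 3.96 for young, aging and suppressed aging, with column medians of 175, 186 and 174), on a linear scale with no other centring.

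Control spots and outlier spots (85 to 118 per array) were dropped, and none was saturated. Replicate spots were averaged per probe on the log2 scale, and each array was centred on its 75th percentile (an intensity of 145, 155 and 122). Median local background was 39, 39 and 29. Of 56591 probes, 36979 were well above background on at least 1 array and 28788 on all 3. RefSeq gene names (GRCm38.p6 table) matched 33759 probes. The array design names mm9, so no coordinates are given. A probe dim on 1 array gives a bound against the higher of its own signal and the lowest detected one, and a probe dim on both gives no fold. Scanner errors are those of Feature Extraction carried to log2. The number of arrays limits the precision.

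Member genes and gene lists were chosen with earlier results of these data known. All member probes are named. Other genes are named if over 2-fold apart at the brightest probe (highest mean level), or if nearest to Vegfa. Of the 15 housekeeping genes used for centring, 1 was over 2-fold apart (Gusb, -1.27 between aging and young). Further genes inside 2-fold were picked after their values were seen, for their known role. The alternatives were normexp background correction (offset 50), centring on 15 housekeeping genes or on the median of detected probes, quantile normalization, the authors' values, outlier spots kept, only probes detected on all 3 arrays, no filter, and the mean over a gene's probes. Python 3.11.15, NumPy 2.4.6, pandas 2.3.3, Matplotlib 3.10.9, R 4.3.3 and limma 3.58.1 were used, and the scripts were tested on simulated data.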

Additional observations from a re-analysis of the deposited data

How the results depend on the processing

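Of 42 member differences, 39 kept their sign under each alternative that gave them a value, and so did all 9 over 2-fold. The 8 alternatives that apply to single probes all gave a value for 30 of the 42 and for 5 of the 9 (not for Vegfa probe 3 and Vegfc probe 2). The exceptions were near 0 (Erbb2 probe 2 and Erbb3 between suppressed aging and aging, Vegfa probe 4 between aging and young). Sizes depended most on background correction. With normexp, member probes over 2-fold apart numbered 1 for maternal age, and 0 after suppression whether set against aging or young, where 4.52%, 3.83% and 3.85% of all probes were over 2-fold apart. Vegfa probes 1 and 2 were then at -0.84 and -0.57 between suppressed aging and young, and Vegfa probe 3 at 1.05 between aging and young. For aging and young, the oxygen-responsive list then had 1 gene over 2-fold higher and 0 lower, the ERBB adaptors 1 and the other EGF family genes 0.

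Between aging and young the count of 1 became 2 with quantile normalization, with housekeeping centring, with the authors' values and with no filter, and 0 with only probes detected on all 3 arrays. In the same order, 20.9%, 21.0%, 20.1%, 23.0% and 16.1% of all probes were over 2-fold apart. Between suppressed aging and aging the count of 3 became 5 with housekeeping centring, with the authors' values and with no filter, beside 18.9%, 18.6% and 21.8% of all probes. Between suppressed aging and young the count of 5 became 3 with only probes detected on all 3 arrays, beside 13.9% of all probes. The filter settings also changed how many member probes could be compared. The median of -0.36 in that comparison became -0.12 with normexp, -0.15 with only probes detected on all 3 arrays, -0.041 with no filter and 0.14, with the sign turned, with the mean over a gene's probes. Leaving out the filter moved the median of all probes to -0.12, 0.17 and 0.06. The cause of these shifts was not tested.

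No paired analysis was possible because a condition had no second array, and no replicate could be left out. Most VEGF and EGF probes were within a few log2 units of the detection limit. Probes spotted 10 times on the array, none of them a member, had a median spot SD of 0.17 to 0.21 per array below level 0. The largest SD of such a probe was 0.35 in young, 0.43 in aging and 0.49 in suppressed aging.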
